A study of Mus musculus with 59 samples.

Results

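The genes that make, move, store and export cholesterol were followed as 1 module in cultured mouse microglia with reduced or absent Tbk1, a kinase of innate immune signalling. The module comprised the 33 genes of a curated list whose symbol appeared in the gene column of both expression tables, out of 32070 genes in all. By role these were 18 enzymes of cholesterol synthesis, 5 regulators of the SREBP transcription factors, 4 genes of uptake and transport inside the cell, and 6 genes of efflux, storage, oxysterol production and the LXR receptors. All 33 passed the filter on low values, set at 1 TPM or more in 4 or more libraries of the table, TPM being the share of transcripts scaled for gene length.

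Primary microglia came from newborn pups and were sequenced as poly(A)-selected bulk RNA, 1 library per culture. KO cultures were Tbk1 fl/fl with Cx3CR1-Cre, HET cultures were Tbk1 fl/+ with Cx3CR1-Cre, and WT cultures were Tbk1 fl/fl without Cre. Each genotype was stimulated for 24 h with lipopolysaccharide (LPS, 100 ng/mL), a bacterial ligand of Toll-like receptor signalling, with interleukin-4 (IL4, 20 ng/mL), or with poly(I:C) (pIC, dose not given in the labels), a mimic of viral double-stranded RNA. Untreated cultures (UT) received fresh medium alone. The medium held 10% fetal calf serum before stimulation, so cholesterol was then also available from outside the cells. Its supply during the 24 h of stimulation was not measured. Every group had 5 cultures except untreated WT, with 4, its replicate 5 being not analysed here. Only KO and HET carried Cre, so a difference from WT also holds the presence of Cre, while KO against HET holds Cre constant. In bulk libraries fewer cells of a type and less RNA per cell cannot be told apart.

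Cells build cholesterol from acetyl-CoA through the mevalonate pathway, squalene and lanosterol, and they also take it up in lipoproteins. When sterol in the endoplasmic reticulum is low, SCAP escorts SREBP precursors to the Golgi for cleavage, and the freed fragment activates synthesis genes, whereas INSIG proteins hold SCAP back when sterol is high. Oxysterols activate the LXR receptors, which raise ABCA1 and ABCG1 export and, in macrophages, the ligase MYLIP that degrades lipoprotein receptors. The oxysterol made by CH25H also binds INSIG and is secreted by activated macrophages and microglia.

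The targeted gene followed the labels. Tbk1 ranged from 11.1 to 30.8 TPM over all KO libraries, from 27.6 to 66.7 TPM in HET and from 42.2 to 101 TPM in WT, and within each treatment the 3 genotypes did not overlap. Microglia markers dominated the untreated cultures, with a summed level of 6547 to 8136 TPM for 12 markers, against 280 to 889 TPM for 11 astrocyte markers and 624 to 2742 TPM for 14 markers of the oligodendrocyte lineage. The list of border macrophages and monocytes summed to 455 to 650 TPM, and its markers Pf4, Clec4n, Stab1 and Mrc1 were at 0 in no library. Other markers were at 0 in many of the 59 libraries: the border macrophage genes Cd209f and Cd163 in 53 and 33, the monocyte gene Ly6c2 in 29, and the pericyte gene Rgs5 in 21. The microglia marker Siglech was also at 0, in 10 libraries. The endothelial marker Cldn5 had no row in the tables. Deposited TPM values carry no read depth, and 12428 to 14581 genes per library reached 1 TPM.

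LPS lowered the listed synthesis enzymes in WT microglia. All 18 fell, from the first condensing steps to the last reductase, with a median difference of -2.26 on the log2(TPM + 1) scale. They ranged from -2.86 for Tm7sf2 to -0.87 for Ebp (limma, LPS minus UT, Benjamini-Hochberg adjusted p over all genes tested). Summed over the 18 enzymes, expression was 253 ± 42.7 TPM with LPS and 1306 ± 369 TPM untreated (SD, n = 5 and 4), and the ranges of 216 to 320 TPM and 769 to 1577 TPM did not overlap.

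Of all 33 members, 25 fell and 6 rose with LPS in WT, while across all 15908 genes tested 61.9% fell and 13.9% rose. In 25 members every LPS library lay below every UT library, and in 4 above, against 53% and 11.8% of all genes. The member median was -1.60 and that of all genes on the TPM scale -0.59. With median-of-ratios scaling the all-gene median was -0.056 and with quantile normalization -0.13. With median-of-ratios scaling the members split into 8 higher and 23 lower (31.6% and 32.3% of all genes), and with quantile normalization into 7 and 25 (25.4% and 36.1%). Synthesis stayed low under both, with 17 and 18 of 18 enzymes lower, the exception being Ebp with median-of-ratios scaling (-0.22, adjusted p = 0.0593).

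Tm7sf2, a reductase that acts on the sterol ring, had 3.58, 2.54, 2.30, 2.75 and 0.943 TPM with LPS, against 29.5, 15.5, 22.3 and 27.2 TPM untreated (-2.86 ± 0.30, SE, adjusted p = 1.12e-10). Idi1, the isomerase that readies isoprene units for chain building, had 6.50, 5.32, 6.72, 9.93 and 6.78 TPM with LPS, against 62.3, 30.5, 53.2 and 65.7 TPM untreated (-2.71 ± 0.28, adjusted p = 8.36e-11). Dhcr7, which makes cholesterol in the final step of one branch, had 9.49, 7.92, 10.3, 11.6 and 7.72 TPM with LPS, against 76.2, 44.0, 68.9 and 77.2 TPM untreated (-2.68 ± 0.20, adjusted p = 4.0e-15). In all 3 genes the LPS and untreated cultures were far apart, and untreated replicate 2 was the lowest of its group. The most abundant enzyme, the HMG-CoA synthase Hmgcs1, reached 41.2 to 75.0 TPM with LPS and 185 to 452 TPM untreated.

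Promoter sequences were taken from RefSeq (GRCm38.p6) for the 27 members it matched, with 36 listed transcription starts. They were scanned from 250 bases before to 50 after each start, on both strands. Fdps, Fdft1, Sqle, Npc1, Stard4 and Abcg1 were not matched, so their promoters were not scanned. TCACNCCAC, a spelling of the sterol regulatory element, was found in 1 of 36 member promoters, that of Hmgcs1, and in 1.24% of all 32851 promoters. The shorter CACNCCAC, which every match of the longer spelling contains, was found in 3 member promoters, those of Hmgcs1, Acat2 and Insig1, and in 6.24% of all promoters. CCAAT boxes, the motif read by NF-Y, were in 22 of 36 member promoters (61.1%) and in 37.4% of all promoters. Counted by gene over any listed start, 14 of 15 synthesis enzymes held CCAAT, Acat2 being without, against 41.1% of all 27025 genes. So did 4 of 5 SREBP regulators, 2 of 2 matched transport genes and 1 of 5 matched genes of efflux and LXR (Soat1). Npc2, Insig2 and Srebf1, which rose with LPS in WT, were among the genes with CCAAT. These matches describe letters in the window and no binding was measured.

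The 250 bases before the start are printed for Hmgcs1 and Idi1, strongly lowered enzymes, for Insig1, the regulator with the shorter element, and for Ch25h, the member that rose most and held no match, all 5′ to 3′ on the gene's own strand. They lie at chr13:119690101-119690350 (plus strand), chr13:8885356-8885605 (plus strand), chr5:28071162-28071411 (plus strand) and chr19:34475149-34475398 (minus strand). Capitals mark a CCAAT box on the opposite strand (ATTGG), the sterol element of Hmgcs1 (TCACCCCAC, 137 bases before the start) and the shorter element of Insig1 on the opposite strand (GTGGCGTG).
Hmgcs1: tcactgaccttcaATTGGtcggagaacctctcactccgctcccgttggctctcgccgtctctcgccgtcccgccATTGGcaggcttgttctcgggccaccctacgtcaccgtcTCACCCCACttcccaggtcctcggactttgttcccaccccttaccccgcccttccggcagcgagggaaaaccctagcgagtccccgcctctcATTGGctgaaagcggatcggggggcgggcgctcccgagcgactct
Idi1: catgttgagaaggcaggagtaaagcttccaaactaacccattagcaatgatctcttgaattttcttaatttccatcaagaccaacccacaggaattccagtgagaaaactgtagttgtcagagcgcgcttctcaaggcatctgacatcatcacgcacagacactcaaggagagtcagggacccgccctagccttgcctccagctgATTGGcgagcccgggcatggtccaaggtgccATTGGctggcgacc
Insig1: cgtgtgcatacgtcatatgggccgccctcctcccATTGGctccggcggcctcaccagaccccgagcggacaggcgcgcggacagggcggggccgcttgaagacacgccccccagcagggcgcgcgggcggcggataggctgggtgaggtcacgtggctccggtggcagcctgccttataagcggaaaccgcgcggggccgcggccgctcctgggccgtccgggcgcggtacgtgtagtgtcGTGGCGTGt
Ch25h: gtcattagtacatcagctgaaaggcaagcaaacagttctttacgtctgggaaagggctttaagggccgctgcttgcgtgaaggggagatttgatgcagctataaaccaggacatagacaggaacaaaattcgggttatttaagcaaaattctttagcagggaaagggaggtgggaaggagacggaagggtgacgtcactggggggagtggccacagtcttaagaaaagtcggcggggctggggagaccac
The Hmgcs1 stretch holds 3 CCAAT boxes around its element and is 64.8% G and C, the Idi1 stretch holds 2 near the start and is 51.2% G and C, and the Ch25h stretch, at 50.4%, has no capitals.

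**Figure D1:**
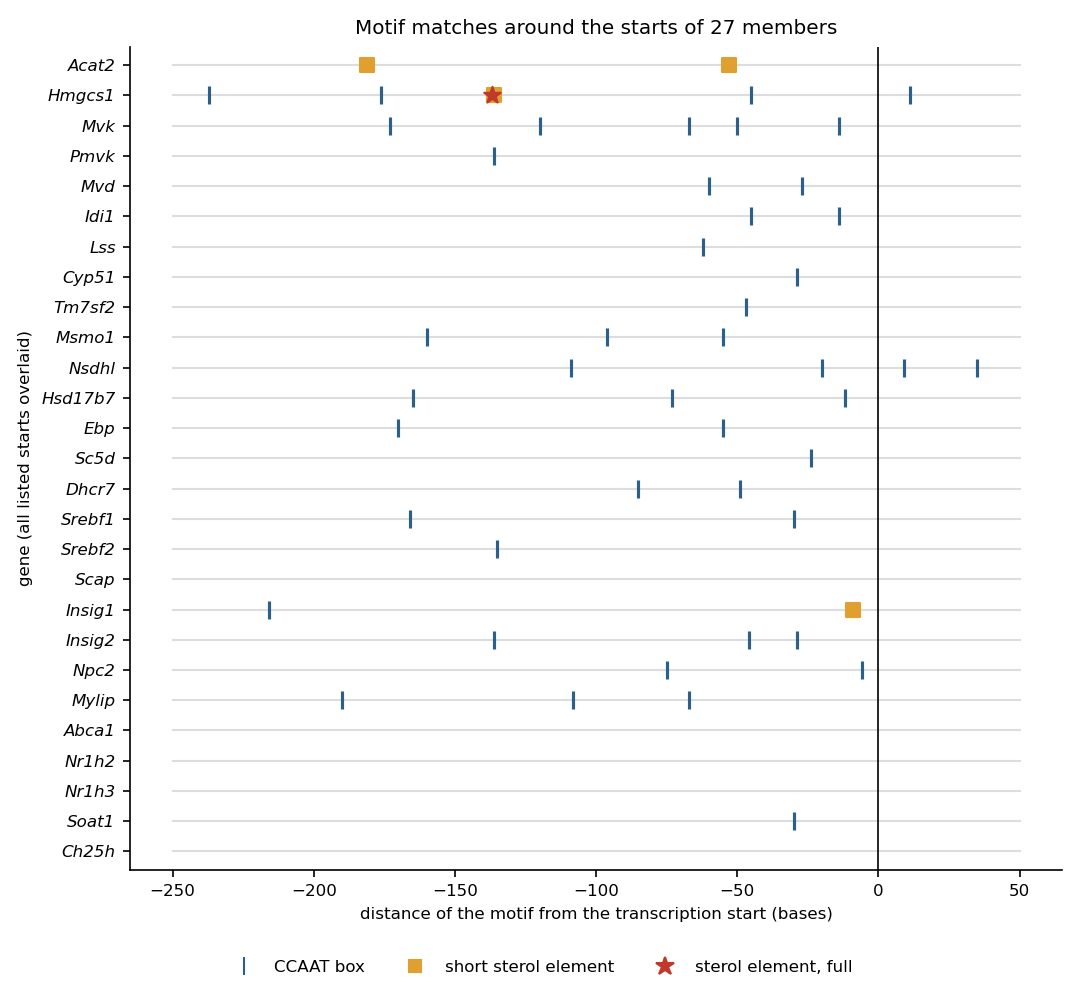
Matches of CCAAT (blue ticks), CACNCCAC (orange squares) and TCACNCCAC (red star) by distance in bases from the transcription start (x axis, start at 0) in the 27 matched members (rows, all listed starts overlaid). Ticks stand in the rows of 14 of 15 synthesis enzymes, 4 of 5 SREBP regulators and 2 of 2 matched transport genes. Of the 5 efflux and LXR genes at the bottom 4, Ch25h among them, have no match.

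Regulators of SREBP cleavage moved in both directions with LPS in WT. Srebf2, the SREBP that drives cholesterol genes, had 35.5, 33.5, 42.9, 41.7 and 30.3 TPM with LPS, against 129, 84.8, 110 and 127 TPM untreated (-1.58 ± 0.20, adjusted p = 5.76e-09). Insig1, the retention factor that is itself an SREBP target, had 29.4, 27.2, 31.0, 24.5 and 28.9 TPM with LPS, against 91.4, 54.3, 73.7 and 96.3 TPM untreated (-1.42 ± 0.21, adjusted p = 1.98e-07). Scap, the escort, also fell (-1.11 ± 0.18, adjusted p = 1.67e-06), and the LPS and untreated libraries of these 3 genes did not overlap. Srebf1, whose main products drive fatty acid genes, had 23.0, 32.2, 36.4, 32.5 and 34.6 TPM with LPS, against 29.4, 23.9, 20.2 and 18.3 TPM untreated. It rose by the test (0.46 ± 0.17, adjusted p = 0.0132) although its groups overlapped, and without untreated replicate 4 it missed the threshold (adjusted p = 0.0690). Insig2, a retention factor less tied to SREBP, was at 24.3, 25.1, 32.7, 33.7 and 30.9 TPM with LPS, against 25.1, 23.6, 20.1 and 26.7 TPM untreated. Its small rise (0.28 ± 0.12, adjusted p = 0.0328) was lost in 7 of 15 alternative settings, with adjusted p of up to 0.147. These included leaving out LPS replicates 3, 4 or 5 or untreated replicates 2 or 3. Over all alternative settings, other scalings among them, the difference ranged from 0.20 to 0.94 for Insig2 and from 0.36 to 1.11 for Srebf1.

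Among transport genes 3 fell and 1 rose. Stard4, a soluble carrier that moves cholesterol between membranes, had 2.35, 1.99, 3.27, 3.96 and 2.94 TPM with LPS, against 24.5, 13.1, 18.0 and 26.0 TPM untreated (-2.43 ± 0.24, adjusted p = 2.58e-11). Npc1, the lysosomal membrane protein that exports cholesterol, had 49.8, 54.6, 46.5, 50.3 and 48.6 TPM with LPS, against 152, 148, 138 and 154 TPM untreated (-1.55 ± 0.08, adjusted p = 4.16e-20). Mylip, the lipoprotein receptor ligase, had 38.6, 38.5, 33.3, 30.6 and 29.7 TPM with LPS, against 82.3, 85.0, 86.6 and 79.9 TPM untreated (-1.27 ± 0.12, adjusted p = 1.49e-11). None of these groups overlapped. Npc2, the soluble lysosomal partner that hands cholesterol to NPC1, went the other way at 539, 660, 552, 583 and 653 TPM with LPS, against 344, 368, 355 and 363 TPM untreated (0.74 ± 0.11, adjusted p = 2.51e-07). The NPC pair was thus split, with Npc2 above and Npc1 below its untreated level in every LPS library.

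Ch25h, the cholesterol hydroxylase at chr19:34473783-34475148, rose most of all members. It had 1394, 1167, 1371, 1315 and 1421 TPM with LPS, against 37.7, 106, 41.0 and 61.2 TPM untreated (4.54 ± 0.29, adjusted p = 3.56e-17). Nr1h3, which encodes LXR alpha, had 6.41, 10.5, 4.81, 6.31 and 5.93 TPM with LPS, against 1.67, 1.81, 1.17 and 1.16 TPM untreated (1.64 ± 0.27, adjusted p = 1.71e-06). Abcg1, an exporter to high-density lipoprotein, had 65.2, 93.5, 54.2, 49.7 and 51.7 TPM with LPS, against 32.8, 40.4, 37.9 and 33.0 TPM untreated (0.75 ± 0.26, adjusted p = 0.00954). In these 3 genes every LPS library was above every untreated one. Abca1, the exporter to lipid-poor apolipoproteins, had 164, 191, 200, 163 and 172 TPM with LPS, against 135, 170, 155 and 147 TPM untreated, and was not called (0.23, adjusted p = 0.201). With median-of-ratios scaling Abca1 passed at 0.90 (adjusted p = 2.21e-06). Nr1h2, LXR beta, was not called either (0.05), while Soat1, which esterifies cholesterol for storage, fell (-0.69 ± 0.15, adjusted p = 9.94e-05) but not with median-of-ratios scaling (-0.016).

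Neighbouring pathways were read from lists outside the module. All 13 genes of fatty acid synthesis under SREBP fell with LPS in WT, among them the desaturase Scd1 (-2.51), the lipase Pnpla3 (-2.49) and the fatty acid synthase Fasn (-2.16). Of 9 further LXR targets and efflux genes 7 fell and none rose, led by the sterol hydroxylase Cyp27a1 (-4.55) and Arl4c (-3.47). Of 7 lipoprotein receptors 2 rose, the scavenger receptors Msr1 (2.74) and Cd36 (1.45), and 4 fell, including Lrp1 (-2.54). Of 9 genes of lysosomal and membrane sterol transfer 6 fell, led by the acid lipase Lipa (-1.98), and 3 rose, led by Stard3 (1.09). Of 9 other sterol synthesis genes 4 fell and 2 rose, Por (0.71) and Cyb5r3 (0.40), and the list summed to 504 ± 25.3 TPM with LPS and 474 ± 34.2 TPM untreated. Of 11 genes of SREBP processing and degradation 5 fell and 3 rose. In both lists the share that fell was below the 61.9% of all genes, and the share that rose was above the 13.9%. For the receptors and for sterol transfer the share that fell was near the 61.9%, and the share that rose was above the 13.9%. With median-of-ratios scaling the split changed to 3 lower and 6 higher for sterol transfer, 2 and 4 for other sterol synthesis and 2 and 8 for SREBP processing. Of all genes 32.3% were lower and 31.6% higher under that scaling. The SREBP protease gene Mbtps1 was at -1.11 and the coat protein gene Sec24d at 0.88.

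Markers of cells other than microglia also moved with LPS in WT. The astrocyte markers summed to 117 to 245 TPM with LPS and 451 to 889 TPM untreated, with 8 of 11 lower and 1 higher. Those of the oligodendrocyte lineage summed to 207 to 959 TPM with LPS and 1150 to 2742 TPM untreated, with 13 of 14 lower. Of 12 neuron markers 9 were lower, and so were 11 of 12 microglia markers, which summed to 982 to 1224 TPM with LPS and 6559 to 7352 TPM untreated. Across all genes tested 61.9% were lower and 13.9% higher, and with median-of-ratios scaling 32.3% and 31.6%. The part of the marker shifts in the fall of the sterol genes was not tested.

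The fall of the synthesis enzymes with LPS was smaller in KO. There 16 of 18 enzymes fell, with a median of -0.97, while in HET all 18 fell with a median of -1.85. Mvd, the decarboxylase of the mevalonate pathway, was at 15.4, 26.6, 21.5, 18.1 and 19.6 TPM with LPS in KO, against 19.0, 19.7, 25.5, 29.8 and 9.79 TPM in untreated KO (0.03, adjusted p = 0.932). Fdps, the farnesyl diphosphate synthase, was the other enzyme not called in KO (-0.60, adjusted p = 0.0623), though it was called with the replicate number as a block (adjusted p = 0.00609). LPS and untreated KO cultures overlapped in these 2 genes. Of all 33 members 4 rose and 23 fell in KO, against 13.1% and 56.5% of all genes. In HET 4 rose and 25 fell, against 14.3% and 59.7%. Groups did not overlap for 16 lower and 2 higher members in KO (39.6% and 9.59% of all genes) and for 25 and 3 in HET (45.4% and 11.6%).

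The size of the KO fall depended on the scaling. With median-of-ratios scaling, 10 members rose and 11 fell in KO (29.4% and 29.1% of all genes), and 8 rose and 23 fell in HET (32.3% and 32.6%), while the all-gene medians were -0.031 and -0.050 in place of -0.44 and -0.51. Among the enzymes 8 then fell in KO (median -0.45), and 2 rose, Mvd (0.54, adjusted p = 0.0223) and the isomerase Ebp (0.23, adjusted p = 0.0367). With quantile normalization 12 enzymes fell in KO and none rose.

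In KO the rise of Ch25h with LPS was 1.98 ± 0.27 (adjusted p = 4.7e-08), with 200 to 472 TPM against 45.6 to 110 TPM untreated. Abca1 rose in KO (0.63 ± 0.15, adjusted p = 4.27e-04) and in HET (0.36, adjusted p = 0.0314), where the call was lost in 5 of 16 alternative settings. Nr1h3 rose in KO (1.36 ± 0.26) and HET (1.73 ± 0.26), while for Npc2 HET gave a rise (0.35 ± 0.10, adjusted p = 0.00263) and KO gave no call (-0.16).

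**Figure D2:**
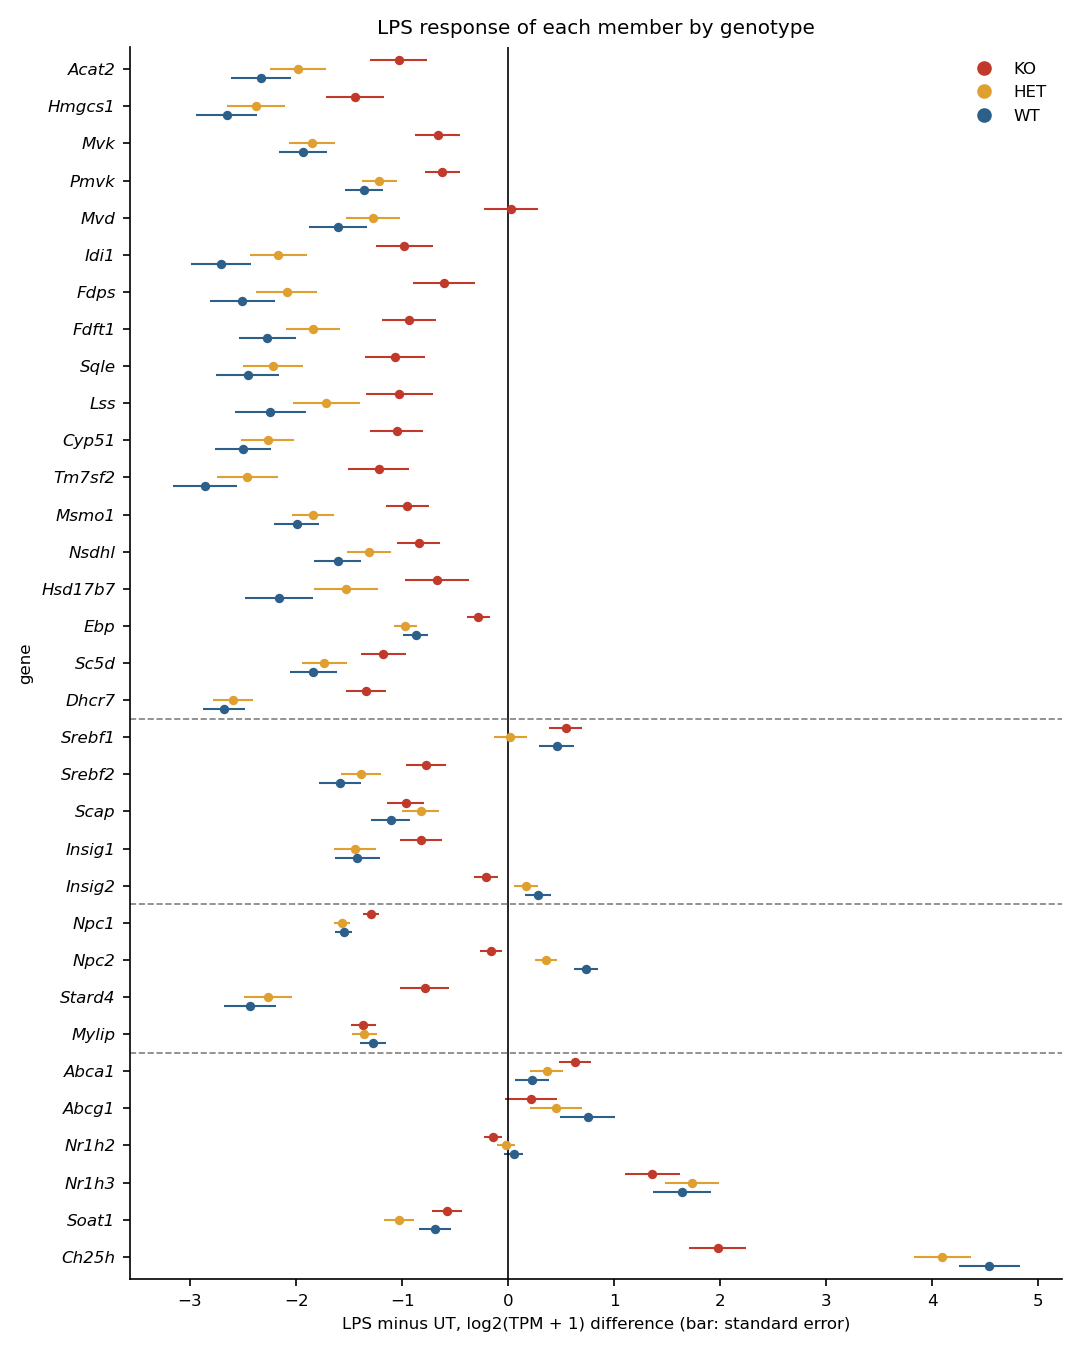
Difference between LPS and untreated cultures in log2(TPM + 1) (x axis) for each member (rows, grouped by role with dashed lines) in KO (red), HET (yellow) and WT (blue), with bars for the standard error. The synthesis enzymes sit left of 0 in WT and HET, with medians of -2.26 and -1.85, and nearer 0 in KO at -0.97, while Ch25h sits at 1.98 in KO, 4.10 in HET and 4.54 in WT.

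The difference between genotypes in the LPS response was tested as its own contrast. Against WT, the response of KO was higher in 17 members and lower in 3, where 9.36% and 7.03% of all genes passed. The 17 were 15 synthesis enzymes together with Srebf2 and Stard4, and the synthesis median was 1.32. Lss, Nsdhl and Sc5d were the enzymes not called. The 3 lower ones were Ch25h (-2.56 ± 0.39, adjusted p = 6.46e-06), Npc2 (-0.90 ± 0.15, adjusted p = 2.98e-05) and Insig2 (-0.49 ± 0.16, adjusted p = 0.0357). The Insig2 call was lost in 9 of 25 alternative settings, with adjusted p of up to 0.105 without untreated WT replicate 3. It was also lost without untreated WT replicate 2, WT replicates 3, 4 or 5 with LPS, KO replicate 3 with LPS or untreated KO replicates 3 or 5. Of the 17, Srebf2, Hmgcs1 and Pmvk lost their calls in 11, 10 and 9 settings (adjusted p of up to 0.0814), all 3 of them without untreated WT replicates 1 or 4, WT replicate 2 with LPS or untreated KO replicate 5. Against HET, 11 members were higher and 2 lower (7.69% and 6.15% of all genes), 10 of the 11 being enzymes. This count was 7 without untreated HET replicate 1 and 18 without untreated HET replicate 5. Sqle, Idi1, Msmo1 and Tm7sf2 lost their calls in 14, 11, 10 and 9 of 26 settings (adjusted p of up to 0.112), all 4 of them without untreated HET replicates 1, 3 or 4, KO replicate 2 with LPS or untreated KO replicate 5. The response of HET did not differ from that of WT in any member by limma, with 1 member at an unadjusted p under 0.05, 0 called under every alternative run, and 0% of all genes called.

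Under LPS itself, the listed synthesis enzymes were higher in KO than in WT. All 18 rose, with a median of 1.02 and a range of 0.52 to 1.66, and in 14 of them every KO culture was above every WT culture. Summed over the enzymes, KO reached 550 ± 124 TPM (393 to 698) and WT 253 ± 42.7 TPM (216 to 320; SD, n = 5 each). HET stood at 282 ± 42.6 TPM (240 to 352). Of all members 22 rose and 5 fell in KO, against 14.4% and 13.2% of all genes tested. The groups did not overlap for 16 higher and 3 lower members, against 7.56% and 8.61% of all genes. The member median was 0.70 and the all-gene median 0.0073, and all 18 enzymes rose under either other scaling as well.

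Idi1 had 16.5, 29.1, 28.2, 28.8 and 20.4 TPM in KO with LPS, against 6.50, 5.32, 6.72, 9.93 and 6.78 TPM in WT with LPS (1.66 ± 0.27, adjusted p = 4.37e-06). Fdps had 48.8, 85.8, 63.4, 71.3 and 61.7 TPM in KO, against 19.9, 20.7, 20.0, 28.9 and 15.7 TPM in WT (1.61 ± 0.29, adjusted p = 2.71e-05). Tm7sf2 had 7.24, 7.77, 5.98, 7.91 and 7.18 TPM in KO, against 3.58, 2.54, 2.30, 2.75 and 0.943 TPM in WT (1.31 ± 0.29, adjusted p = 3.97e-04). These 3 genes separated the genotypes completely, yet every KO value stayed below the lowest untreated WT value in Idi1 and Tm7sf2. The enzymes whose groups overlapped were Hmgcs1, Lss, Hsd17b7 and Sc5d, in each of which KO replicate 1 was the lowest KO culture. The cyclase Lss had 7.86 TPM in that culture and 19.7 to 40.4 TPM in the other KO cultures, against 9.27 to 12.8 TPM in WT (0.92 ± 0.32, adjusted p = 0.0242). Its call was lost in 6 of 16 alternative settings, among them without KO replicates 2, 3 or 4 or WT replicate 5 (adjusted p of up to 0.104). Leaving out KO replicate 1 gave 23 higher and 5 lower members.

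The regulators followed in part. Srebf2 had 41.3, 68.1, 60.9, 64.4 and 56.1 TPM in KO with LPS, against 35.5, 33.5, 42.9, 41.7 and 30.3 TPM in WT (0.64 ± 0.19, adjusted p = 0.00797). Insig1 had 36.6, 50.0, 42.8, 44.0 and 38.1 TPM in KO, against 29.4, 27.2, 31.0, 24.5 and 28.9 TPM in WT (0.56 ± 0.20, adjusted p = 0.0295). Insig2 had 19.3, 21.6, 19.1, 20.7 and 20.6 TPM in KO, against 24.3, 25.1, 32.7, 33.7 and 30.9 TPM in WT (-0.50 ± 0.11, adjusted p = 5.61e-04). Both Insig genes separated the genotypes, in opposite directions, while Srebf2 overlapped through KO replicate 1. The Insig1 call was lost in 5 of 16 settings, among them without WT replicates 2 or 4 or KO replicates 2 or 4 (adjusted p of up to 0.0811), and the Insig2 call in none. Srebf1 had 30.5, 39.8, 29.6, 24.8 and 35.7 TPM in KO, against 23.0, 32.2, 36.4, 32.5 and 34.6 TPM in WT (0.01), and its groups overlapped throughout. Scap was not called (0.12).

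Of the transport genes, Stard4 rose most in KO and Npc2 fell. Stard4 had 6.07, 13.9, 10.2, 12.1 and 10.3 TPM in KO with LPS, against 2.35, 1.99, 3.27, 3.96 and 2.94 TPM in WT (1.54 ± 0.23, adjusted p = 1.03e-06). Npc2 had 502, 264, 359, 301 and 311 TPM in KO, against 539, 660, 552, 583 and 653 TPM in WT (-0.81 ± 0.10, adjusted p = 5.3e-08). Npc1 had 53.0, 65.0, 57.1, 70.2 and 59.2 TPM in KO, against 49.8, 54.6, 46.5, 50.3 and 48.6 TPM in WT (0.28 ± 0.07, adjusted p = 0.00374). Stard4 and Npc2 did not overlap between genotypes, and KO replicate 1 held the lowest Stard4 and the highest Npc2 of the KO cultures. Mylip was at 37.8, 29.8, 36.7, 22.8 and 28.5 TPM in KO, against 38.6, 38.5, 33.3, 30.6 and 29.7 TPM in WT, and was not called (-0.14).

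Ch25h was the member that differed most between genotypes under LPS. It had 472, 200, 211, 274 and 357 TPM in KO, 1449, 1158, 1339, 1172 and 1194 TPM in HET, and 1394, 1167, 1371, 1315 and 1421 TPM in WT. The difference from WT was -2.21 ± 0.27 (adjusted p = 1.75e-08) and that from HET -2.13 ± 0.27 (adjusted p = 5.58e-08). KO lay far below both other genotypes, yet above the 45.6 to 110 TPM of untreated KO, and its call was lost in no alternative. Abcg1 had 58.7, 42.5, 44.0, 20.8 and 31.8 TPM in KO, against 65.2, 93.5, 54.2, 49.7 and 51.7 TPM in WT (-0.69 ± 0.25, adjusted p = 0.0304). Nr1h2 was also lower (-0.23 ± 0.08, adjusted p = 0.0414). Both overlapped between genotypes, and their calls were lost in 7 and 8 of 16 settings (adjusted p of up to 0.154 and 0.181). For Abcg1 these included leaving out WT replicates 1 or 2 or KO replicates 4 or 5, and for Nr1h2 WT replicates 2 or 3 or KO replicates 2, 3 or 4. Abca1 had 119, 269, 253, 250 and 196 TPM in KO, against 164, 191, 200, 163 and 172 TPM in WT, and was not called (0.24), with KO replicate 1 below and the other 4 KO cultures at or above most WT cultures. Nr1h3 and Soat1 were not called.

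**Figure D3:**
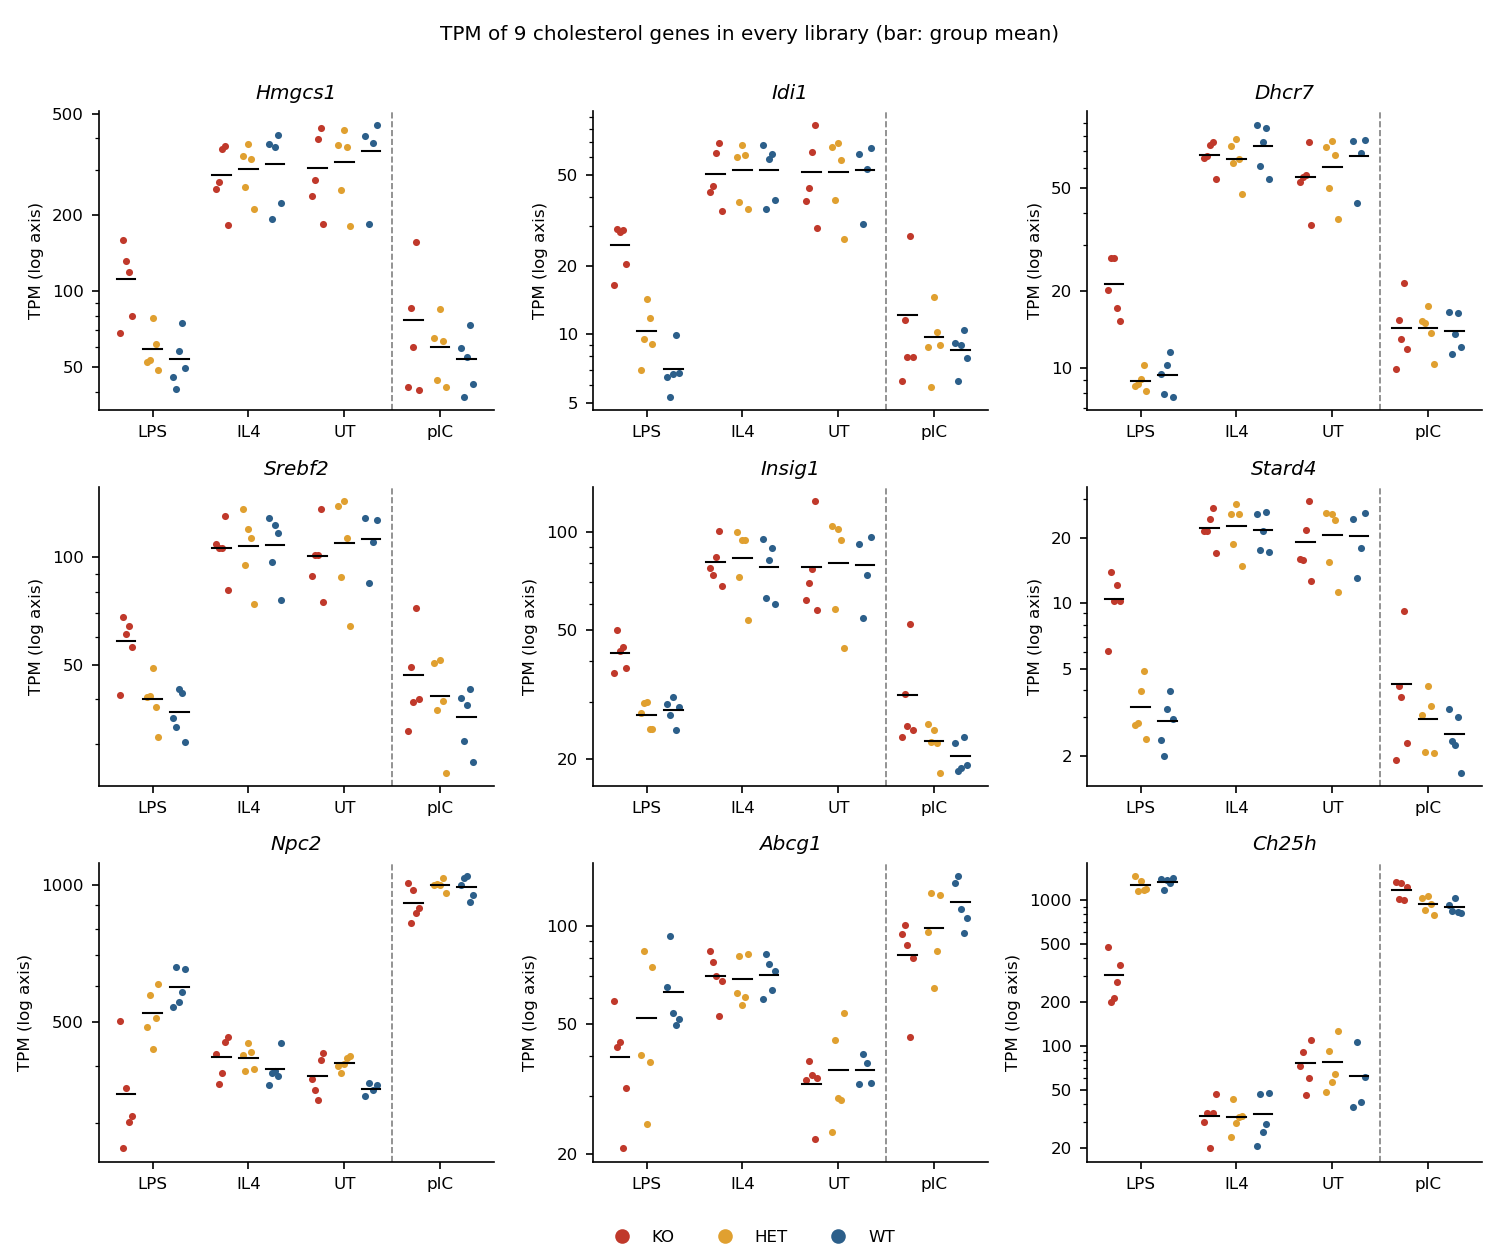
TPM on a log axis of 9 members in every library, by treatment (x axis, pIC from a separate table right of the dashed line) and genotype (red KO, yellow HET, blue WT), with bars for group means. Under LPS the KO points of Idi1 and Stard4 lie above all WT points and those of Ch25h, at 200 to 472 TPM, below all others, while untreated and IL4 cultures overlap between genotypes.

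KO was also compared with HET, which carries the same Cre. This comparison shares its KO libraries with that against WT. Against HET 21 members rose and 2 fell in KO with LPS (12.5% and 11.5% of all genes), and 15 and 1 did not overlap (6.5% and 6.89%). Among the enzymes 16 of 18 rose with a median of 0.88, Lss and Nsdhl being not called. Stard4 (1.39 ± 0.23, adjusted p = 8.89e-06), Fdps (1.25 ± 0.29, adjusted p = 9.48e-04) and Idi1 (1.18 ± 0.27, adjusted p = 7.94e-04) were the highest, and Ch25h and Npc2 (-0.61 ± 0.10, adjusted p = 1.33e-05) were the 2 that fell. Without KO replicate 2 the higher calls numbered 14, and without KO replicate 1 they numbered 23. The higher calls of Sc5d, Hsd17b7, Srebf2 and Soat1 were lost in 9, 8, 9 and 8 of 16 settings, each of them without KO replicates 2 or 4. Their adjusted p reached 0.132, 0.122, 0.120 and 0.200. Acat2, Fdft1, Hmgcs1, Insig1 and Npc1 lost theirs in 1 or 2 settings. HET against WT under LPS gave no member call by limma, with 1 at an unadjusted p under 0.05 and 0 under every alternative, and 0.0126% and 0% of all genes passed. The differences of HET from WT spanned -0.36 to 0.48.

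Lists outside the module were mixed between KO and WT under LPS, where 14.4% of all genes tested were higher and 13.2% lower. The share of higher genes in the fatty acid list was near that of all genes. Fatty acid synthesis, with all 13 genes tested, had 2 higher, Acss2 (1.39 ± 0.27), which activates acetate, and the desaturase Fads1 (0.79 ± 0.18), and a median of 0.36. With either other scaling 4 of the 13 were higher. Of 9 other sterol synthesis genes 2 rose, among them Cyb5r3 (0.30), and 2 fell, the reductase Por (-1.04) and Ggps1 (-0.66), which draws farnesyl units into protein prenylation. That list summed to 417 to 463 TPM in KO and 475 to 544 TPM in WT, below WT without overlap and opposite to the sum of the 18 enzymes. Of 9 sterol transfer genes 3 rose, among them Tmem97 (1.69 ± 0.10), whose product binds NPC1, and Lipa (0.81), and 3 fell, among them Stard3 (-0.91) and Gramd1a (-0.84). Of 7 receptors Sorl1 (1.66), Lrp8 (0.83) and Lrp1 (0.54) rose and 2 fell, led by Vldlr (-0.81). Of the 9 listed LXR targets and efflux genes 4 rose, led by Arl4c (1.29) and the sterol hydroxylase Cyp27a1 (1.18), and Smpdl3a fell (-0.71). Of 11 genes of SREBP processing, the protease gene Mbtps1 rose (0.61) and Sec24b (-0.63) and Rnf139 (-0.26) fell.

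Markers beside this comparison moved unevenly, while 14.4% of all genes tested were higher and 13.2% lower. None of 11 astrocyte, 14 oligodendrocyte lineage or 12 neuron markers was called between KO and WT under LPS, with 0, 1 and 1 at an unadjusted p under 0.05. Under median-of-ratios scaling 1 oligodendrocyte lineage and 1 neuron marker were lower, and under quantile normalization 1 neuron marker. The astrocyte sums were 129 to 252 TPM in KO and 117 to 245 TPM in WT. Of 12 microglia markers 6 rose in KO, led by Trem2 (2.70) and Tmem119 (2.30), and their sum was 1314 to 1961 TPM in KO and 982 to 1224 TPM in WT. Of 7 tested markers of border macrophages and monocytes 5 rose, led by Ly6c2 (3.23), Pf4 (2.93), Clec4n (2.79) and Mrc1 (1.79). That list summed to 1820 to 3033 TPM in KO, 355 to 1398 TPM in HET and 265 to 555 TPM in WT, while Cd163 did not exceed 0.370 TPM in any library. The part of these markers in the sterol differences was not tested.

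Untreated and IL4 cultures gave no member call between genotypes. In untreated cultures no member was called between KO and WT by limma, 0 at an unadjusted p under 0.05 and 0 under every alternative, and the differences spanned -0.38 to 0.35 (0.0126% higher and 0.0189% lower of all genes). Synthesis summed to 695 to 1642 TPM in KO, 694 to 1570 TPM in HET and 769 to 1577 TPM in WT, a spread within each genotype wider than any gap between their means of 1139, 1208 and 1306 TPM. Under IL4 no member was called between KO and WT either, 0 at an unadjusted p under 0.05 and 0 under every alternative (0.0251% and 0.0189% of all genes), and the differences spanned -0.20 to 0.48. KO against HET gave no call in untreated or IL4 cultures, with 1 and 0 at an unadjusted p under 0.05, 0 under every alternative and 0.00629% of all genes called in each. HET against WT gave none in either, with 1 and 0 at an unadjusted p under 0.05, 0 under every alternative and 0.0126% of all genes called in each.

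For the genes followed in every genotype comparison, untreated Srebf2 was at 74.9 to 136 TPM in KO and 84.8 to 129 TPM in WT, Insig1 at 57.4 to 125 TPM and 54.3 to 96.3 TPM, and Abca1 at 106 to 150 TPM and 135 to 170 TPM. Untreated Srebf1 was at 15.7 to 28.6 TPM in KO and 18.3 to 29.4 TPM in WT, Insig2 at 20.7 to 27.6 TPM and 20.1 to 26.7 TPM, and Mylip at 74.9 to 87.3 TPM and 79.9 to 86.6 TPM. Abcg1 was at 22.1 to 38.6 TPM in untreated KO and 32.8 to 40.4 TPM in WT, and Ch25h at 45.6 to 110 TPM and 37.7 to 106 TPM. All of these overlapped between genotypes, and so did the IL4 cultures, for example Ch25h at 19.7 to 46.6 TPM in KO and 20.4 to 47.5 TPM in WT.

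The spread among untreated cultures was shared by most enzymes. The lowest synthesis sums were those of untreated HET replicate 5 (694 TPM), untreated KO replicate 5 (695 TPM) and untreated WT replicate 2 (769 TPM), and the same 3 cultures had the highest Ch25h of their groups, at 125, 110 and 106 TPM. In these cultures 17, 18 and 17 of the 18 enzymes were at the lowest level of their group, Ebp being the exception in HET and WT, and in untreated KO Ebp spanned 29.1 to 31.6 TPM. Among IL4 cultures the lowest sums were those of KO replicate 5, HET replicate 5 and WT replicate 2, the same replicate numbers as in untreated cultures. They held the lowest value of 17 enzymes in KO (not Ebp), 18 in HET and 6 in WT. The labels do not say whether a replicate number marks a shared culture. The 3 untreated cultures also had the lowest astrocyte marker sums of their groups, at 316, 280 and 451 TPM, against 842, 805 and 889 TPM in the highest cultures. Their sums were the lowest of their groups for the oligodendrocyte lineage (876, 624 and 1150 TPM) and for neurons (209, 201 and 311 TPM) as well. What these markers contribute to the spread was not tested.

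**Figure D4:**
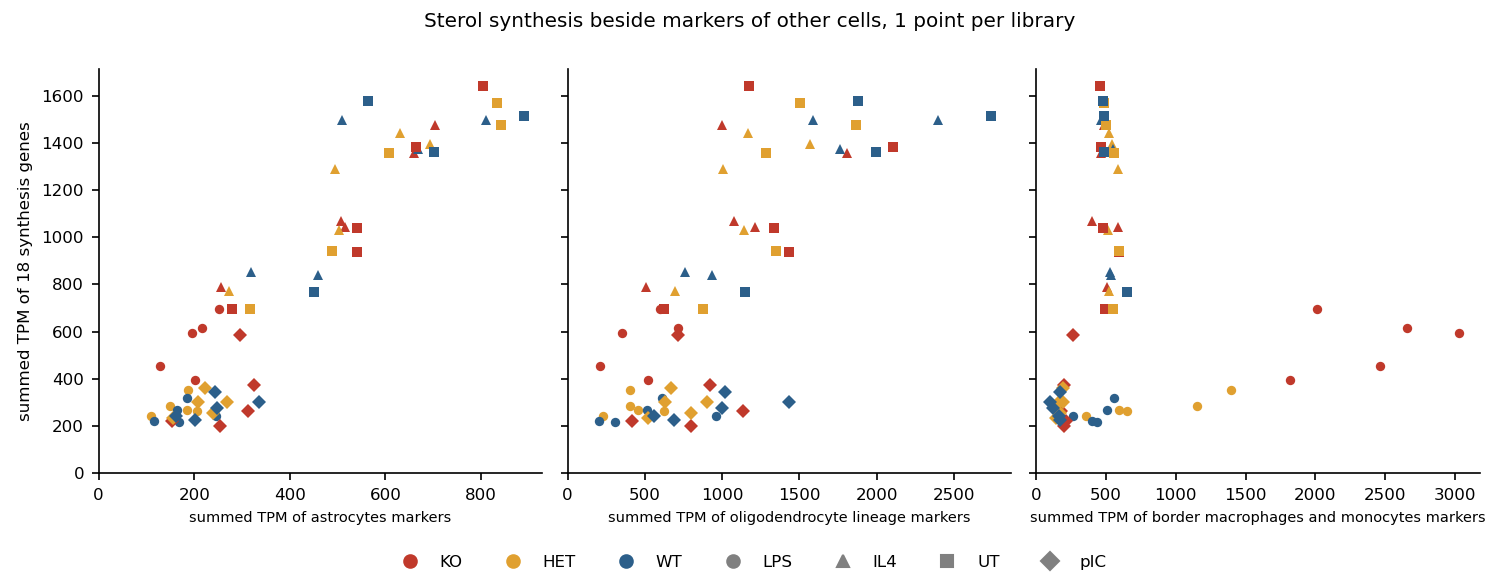
Summed TPM of the 18 synthesis enzymes (y axis) against the summed TPM of markers of astrocytes, of the oligodendrocyte lineage and of border macrophages and monocytes (x axes of the 3 panels), 1 point per library, coloured by genotype and shaped by treatment. Untreated and IL4 libraries spread from 694 to 1642 TPM with astrocyte sums of 256 to 889 TPM, and the KO libraries with LPS stand alone at border macrophage sums of 1820 to 3033 TPM.

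IL4 moved genes of efflux, with Abca1 lower and Abcg1 higher in all 3 genotypes. No synthesis enzyme was called by limma in any genotype, 0 at an unadjusted p under 0.05 and 0 under the other scalings, pseudocount, filter, fit and block, with differences from untreated between -0.31 and 0.31. Abca1 had 74.0, 76.1, 107, 87.9 and 69.7 TPM with IL4 in WT, against 135, 170, 155 and 147 TPM untreated (-0.88 ± 0.16, adjusted p = 2.15e-04), and fell in HET (-0.69) and KO (-0.80) as well. Abcg1 had 59.6, 81.9, 76.7, 63.7 and 72.9 TPM with IL4 in WT, against 32.8, 40.4, 37.9 and 33.0 TPM untreated (0.95 ± 0.26, adjusted p = 0.0170). It rose in HET (0.96, adjusted p = 0.00884) and KO (1.09, adjusted p = 0.00198). The 2 exporters thus moved in opposite directions, and in WT neither overlapped with untreated cultures, as was so for 4.51% of all genes higher and 5.05% lower.

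Mylip had 56.7, 51.0, 70.3, 57.8 and 51.3 TPM with IL4 in WT, against 82.3, 85.0, 86.6 and 79.9 TPM untreated (-0.54 ± 0.12, adjusted p = 0.00352), and it fell in HET (-0.58) and KO (-0.64). With median-of-ratios scaling its WT adjusted p was 0.0517. Ch25h fell with IL4 in HET (-1.17 ± 0.27, adjusted p = 0.00287) and KO (-1.15 ± 0.27, adjusted p = 0.00286) and missed the threshold in WT (-0.79, adjusted p = 0.0963). In KO, Nr1h3 (0.99 ± 0.26, adjusted p = 0.00910) and Srebf1 (0.49 ± 0.16, adjusted p = 0.0416) also rose, the first lost in 2 and the second in 10 of 16 alternative settings. Nr1h3 was low there, at 2.51 to 5.33 TPM with IL4 and 0.463 to 2.94 TPM untreated, and the groups of each gene overlapped. The members called were thus 3 higher and 3 lower in KO (5.38% and 3.03% of all genes), 1 and 3 in HET (3.97% and 3.09%), and 1 and 2 in WT (3.68% and 2.63%). With the replicate number as a block Npc1 also rose in WT (0.20 ± 0.06, adjusted p = 0.0377) and Ch25h also fell there (-0.88 ± 0.24, adjusted p = 0.0150), where 4.93% and 3.97% of all genes passed, and no call changed in KO. The Abcg1 call in WT was lost without untreated replicates 1 or 4 or IL4 replicate 2 (adjusted p of up to 0.0574), and that of Nr1h3 in KO without untreated replicate 1. The difference between KO and WT in the IL4 response was called by limma for no member, 0 at an unadjusted p under 0.05 and 0 under every alternative, and for 0% of all genes. Outside the module Cd36 rose by 2.06 in KO, 2.05 in HET and 2.06 in WT.

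Poly(I:C) cultures were quantified in a separate table, so levels are set beside the others without a test. Synthesis summed to 201 to 585 TPM in KO, 232 to 360 TPM in HET and 225 to 343 TPM in WT under poly(I:C). Ch25h, Npc2 and Nr1h3 were abundant there, with Nr1h3 at 24.0 to 61.9 TPM in KO, 41.8 to 50.1 TPM in HET and 42.7 to 49.1 TPM in WT.

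Only Ch25h was called between KO and WT under poly(I:C), against 3.4% of all genes higher and 8.11% lower. It had 1331, 1016, 1299, 1004 and 1216 TPM in KO, 1030, 848, 1062, 936 and 781 TPM in HET, and 921, 838, 1036, 829 and 813 TPM in WT (0.40 ± 0.11, adjusted p = 0.0266). The genotypes overlapped, and the call was lost in 8 of 16 settings, among them without KO replicates 1, 3 or 5 or WT replicates 2, 4 or 5 (adjusted p of up to 0.0633). The direction was opposite to that under LPS, a difference not tested across the tables. Insig1 had 23.4, 31.6, 25.2, 52.2 and 24.5 TPM in KO, against 22.4, 18.3, 18.7, 23.3 and 19.2 TPM in WT, every KO value above every WT value, and missed the threshold (0.54 ± 0.18, adjusted p = 0.0581). Insig2 had 16.1, 13.8, 14.8, 13.7 and 13.4 TPM in KO, against 16.6, 18.8, 16.6, 18.4 and 21.1 TPM in WT, every KO value below (-0.33 ± 0.11, adjusted p = 0.0624). Such separation was found upward in 2.64% and downward in 7.05% of all genes. Abcg1 had 94.8, 100, 87.6, 45.5 and 79.6 TPM in KO, against 135, 142, 113, 95.1 and 106 TPM in WT (-0.56, adjusted p = 0.0970). With the replicate number as a block, Insig1 (adjusted p = 0.0346) and Soat1 (0.25, adjusted p = 0.0108) were called higher and Abcg1 lower (adjusted p = 0.0284). Of all genes 5.07% were then higher and 11.7% lower. Srebf1, Srebf2, Abca1 and Mylip overlapped and differed by -0.03, 0.34, -0.11 and 0.08.

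The enzymes did not separate under poly(I:C), with a median of 0.14, no call and 1 at an unadjusted p under 0.05, and their differences spanned -0.32 to 0.58. KO replicate 4 stood apart with a synthesis sum of 585 TPM and with 27.0 TPM of Idi1, against 6.26 to 11.6 TPM in the other KO cultures. KO against HET gave no member call, with 6 at an unadjusted p under 0.05, 0 under the other scalings and 2 higher with a replicate block, against 1.65% higher and 3.6% lower of all genes. HET against WT gave none, 0 at an unadjusted p under 0.05 and 0 under every alternative, and 0% of all genes. Outside the module Cyp27a1 (1.26 ± 0.26), Cd36 (0.92) and Msr1 (0.47) rose and Gramd1b (-1.54), Sec24b (-0.94) and Arl4c (-0.53) fell in KO against WT.

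**Figure D5:**
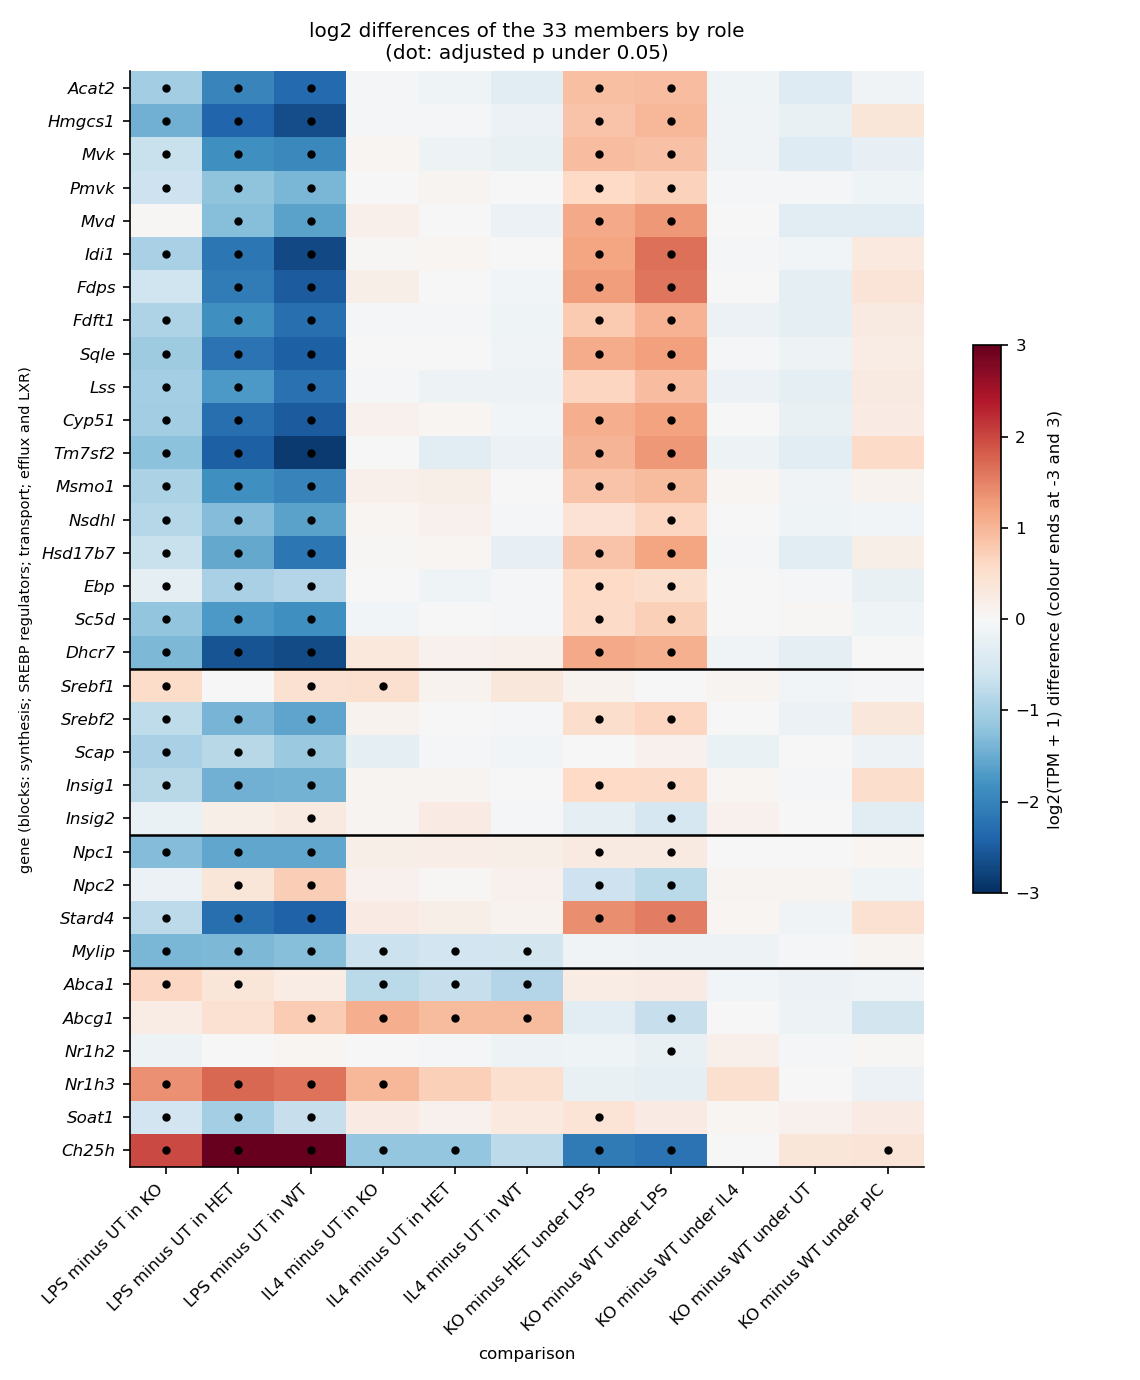
Log2 differences of the 33 members (rows, blocks by role) in 11 comparisons (columns), red for higher and blue for lower in the first-named group, with dots where the adjusted p was under 0.05. Dots cover all 18 synthesis rows for KO minus WT under LPS and none for KO minus WT in untreated or IL4 cultures, where colours stay pale.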

How the data were processed

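Gene expression was measured by RNA-seq in 59 libraries of primary mouse microglia in 12 groups of genotype by treatment. The authors deposited TPM values (transcript shares scaled for gene length and library size), with 44 libraries in the table of LPS, IL4 and untreated cultures and 15 in that of poly(I:C). FastQC, Trimmomatic, DRAGEN, Picard and the mm10 build are named in the submitters' processing notes, while the annotation, strand setting and tool versions are not given in the sources used here. Because TPM keeps no read depth, no counting interval is given. Summed TPM was 999806 to 999936 per library, and no pair of libraries was duplicated (highest r 0.993).

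Values were tested as log2(TPM + 1), which understates changes of low genes, with limma 3.58.1 (R 4.3.3, with version 1.17.8 of data.table; lmFit, eBayes with trend, two-sided), fitting all groups of a table together. Genes at 1 TPM or more in 4 or more libraries entered (15908 and 13919), p-values were Benjamini-Hochberg adjusted over all of them, and calls were made at 0.05. Of 22 comparisons, none crossed the tables, which were deposited separately. Each library is treated as a separate culture, so p-values measure the spread between cultures.

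Whether replicate numbers pair cultures was checked by correlating deviations from group means between same-numbered libraries. In 5 of 18 comparisons every pair exceeded 0.1: LPS minus UT and IL4 minus UT in KO and in WT, and HET minus WT untreated. In these, deviations are shared between groups, which the fit without the block does not model. The KO minus WT and KO minus HET comparisons were all outside this set. The block treats a replicate number as shared by all genotypes, so it may not model sharing within a genotype. Whether it captures the shared deviations was not tested.

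The members, lists and markers were chosen with earlier results of these data known. Per comparison, up to 3 called members of each role with the largest difference were given by library, together with Srebf1, Srebf2, Insig1, Insig2, Abca1, Abcg1, Mylip and Ch25h for LPS in WT and for KO against WT, and other genes were named only from the lists, up to 4 called per list. Other genes printed by value were chosen after their values were seen. A gene of the wider lists enters their counts but is not reported here by name. Promoters came from RefSeq (GRCm38.p6). The alternatives were another pseudocount (0.1), quantile normalization, median-of-ratios scaling, no filter on low values, only the compared groups in the fit, a replicate block, and leaving out each library in turn.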

Additional observations from a re-analysis of the deposited data

Results flagged for a closer look

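Single cultures stood apart from their group in 12 of 444 sets of values tested by Dixon's ratio, where chance alone gives about 1 in 20. Among KO cultures with LPS, Ebp reached 27.9 TPM in replicate 3, against 23.9 to 24.6 TPM in the others. Nr1h3 was at 10.5 TPM in WT replicate 2 with LPS and at 5.96 TPM in HET replicate 5 with IL4. Scap was low at 29.5 TPM in KO replicate 5 with IL4, against 38.2 to 39.7 TPM, and Insig1 was high at 125 TPM in untreated KO replicate 4, against 57.4 to 76.9 TPM. Untreated WT replicate 2 was low in 4 enzymes, with Mvd at 14.4 TPM, Lss at 40.8 TPM, Hsd17b7 at 15.4 TPM and Sc5d at 32.4 TPM. Under poly(I:C), KO replicate 4 was high in Idi1 (27.0 TPM) and Insig1 (52.2 TPM), and HET replicate 5 had a low sum of the 4 transport genes (1140 TPM, against 1194 to 1214 TPM).

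The LPS response differed between genotypes by its own limma contrast in 33 cases. In KO against WT the log2 difference of responses was above 0 for Acat2 (1.30), Hmgcs1 (1.21), Mvk (1.27), Pmvk (0.74), Mvd (1.63), Idi1 (1.73), Fdps (1.90), Fdft1 (1.34), Sqle (1.39), Cyp51 (1.45), Tm7sf2 (1.64), Msmo1 (1.05), Hsd17b7 (1.49), Ebp (0.59), Dhcr7 (1.34), Srebf2 (0.81) and Stard4 (1.64). It was below 0 for Insig2 (-0.49), Npc2 (-0.90) and Ch25h (-2.56). In KO against HET it was above 0 for Mvk (1.18), Mvd (1.30), Idi1 (1.19), Fdps (1.49), Sqle (1.16), Cyp51 (1.22), Tm7sf2 (1.24), Msmo1 (0.89), Ebp (0.69), Dhcr7 (1.25) and Stard4 (1.48), and below 0 for Npc2 (-0.52) and Ch25h (-2.12). The KO responses enter both contrasts, so the sets are not independent.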

How the results depend on the processing

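Counts of called members kept within 1.5 times the reported count under all alternatives except those given here, and the cause of each shift was not tested. With no filter on low values, the LPS response of KO against HET was higher in 7 members (11 reported), KO against WT under poly(I:C) gave 0 higher (1) and KO against WT under LPS gave 3 lower (5). Median-of-ratios scaling gave 8 higher with LPS in HET (4), 10 higher and 11 lower in KO (4 and 23), 2 higher for KO against WT under poly(I:C), 1 lower with IL4 in WT (2) and 1 lower for the response of KO against HET (2). It also turned Ebp in KO from -0.28 to 0.23, and quantile normalization turned it to 0.075 (adjusted p = 0.517). Quantile normalization gave 7 higher in HET with LPS and 3 lower for KO against WT under LPS. With only the compared groups, IL4 in KO gave 1 higher (3), KO against WT under LPS 3 lower, and the response of KO against HET 1 lower.

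With the replicate number as a block, IL4 gave 2 higher in WT (1) and, with Npc1 and Nr1h3, 3 in HET (1). The response of KO against HET gave 20 higher (11), KO against WT under poly(I:C) 3 higher and 1 lower (1 and 0), and KO against HET under poly(I:C) 2 higher (0). No other count moved past 1.5 times under the block.

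Leaving out 1 library at a time, IL4 gave 0 to 1 higher in WT, 1 to 2 in HET and 1 to 3 in KO. The response of KO against HET gave 7 to 18 higher, lowest without untreated HET replicate 1 and highest without untreated HET replicate 5. KO against WT gave 3 to 5 lower and 20 to 23 higher under LPS, and 0 to 1 higher and 0 to 1 lower under poly(I:C), the lower call appearing without KO replicate 5. Of the values of called members, 1962 kept their call and 154 lost it with a library left out, while 1038 kept it, 64 lost it and 2 reversed under the other settings. Replicates of 4 or 5 cultures limit the precision, and TPM gives no depth.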
